A study of Homo sapiens with 6 samples.

Results

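Antisense noncoding genes are the genes that the deposited table types as antisense: they lie on the strand opposite to another gene and encode no known protein. The 688 described here are the antisense rows with an expression value of at least 1 in at least 3 of the 6 libraries. The value is FPKM, reads scaled by gene length and library size. The table holds 58735 genes, of which 5583 are antisense rows and 693 of those reached this level. Set apart by name were 5 of the 693, the snoRNA host genes ZFAS1, SNHG7, SNHG10, SNHG12 and SNHG21. Members were chosen by their FPKM level only, but 13 members passed through the PAL libraries alone and 6 through the control libraries alone, so those had to differ between the groups. Just inside the rule, ZNF213-AS1 had a third-highest value of 1.004 FPKM and AP001783.1 one of 1.005 FPKM. Just outside it, AC018761.4 had 0.999 and AC105446.1 had 0.995 FPKM.

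The libraries are poly-A enriched RNA of A375 cells, an established human malignant melanoma line, and PAL is Ringer's lactate, an infusion fluid, that was activated by low-temperature plasma. Each of the 2 groups, PAL and control, had 3 libraries of the same line; no other genotype or agent is named. Dose, exposure time, the handling of the controls, the meaning of a number 64 that only the PAL column names carry, and whether replicates were separate cultures are not stated in the labels or the table. The p-values below thus reflect only how these libraries vary, in part perhaps for technical reasons. Reads assigned to genes ranged from 15064971 to 17711389 per library. Of 11 melanocyte and melanoma markers, 6 reached 1 FPKM, among them SOX10, at 86.4 to 108 FPKM, and MITF, at 2.12 to 2.40 FPKM. PMEL, MLANA, DCT and TYRP1, the pigment cell markers, stayed below 1 FPKM and TYR was at 0 reads in every library. Summed markers of keratinocytes, fibroblasts and leukocytes stayed below 5 FPKM in each library, and those of endothelium at 0.118 to 0.199 FPKM. In each of the first 3 lists 1 gene reached 1 FPKM and stood above MITF. These were KRT14 at 2.57 to 4.25, LUM at 2.63 to 4.08 and LYZ at 3.19 to 4.97 FPKM. HSPA6, a stress-inducible chaperone, had 1882 ± 171 FPKM in the control libraries against 40.4 ± 28.6 in the PAL libraries (SD, n = 3 each), so the direction of every change below rests on the labels of the libraries.

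Antisense transcripts arise in several ways. Some start near the promoter of a coding gene and run away from it, some start inside the coding gene or past its end and run back across it, and many are trimmed or destroyed in the nucleus by the RNA exosome. A transcript that crosses exons of its coding partner is complementary to the partner's mRNA, and known examples act on the partner's transcription, splicing or stability, while for most no function is known. Neither the labels nor the file headers state whether the authors' counting used strand. Without strand the reads of a gene and of its antisense partner cannot be told apart. Counts that bear on this are given below.

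By start, end and strand, 655 of the 688 members overlapped at least 1 protein-coding gene on the other strand, called the partner below. The remaining 33 overlapped none. A single partner was found for 541 members and 2 or more for 114, and for the latter the main partner is the one that shares the most exon bases. Exons came from GENCODE release 29, in which all 58735 genes of the table have the same start, end and strand. In 268 members 50% or more of the exon bases lay inside exons of the partner, in 337 a smaller share did, and 50 overlapped partner introns only. Within the first class, 120 members had all their bases there. By layout, 354 members lay wholly inside the partner, 139 overlapped it head to head (start against start), 140 tail to tail, and 22 enclosed it.

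The following stretches show what such an overlap is in sequence, for members whose values are described below. Each is written 5′ to 3′ on the member's strand, from GENCODE release 29 coordinates of hg38, with bases opposite the partner's coding sequence in capitals. AC011446.2 (chromosome 19, minus strand, chr19:13153796-13153855) faces IER2, AC093484.3 (chromosome 17, minus strand, chr17:16382451-16382510) faces UBB, AC006064.4 (chromosome 12, minus strand, chr12:6537926-6537985) faces GAPDH, and AL133346.1 (chromosome 6, plus strand, chr6:131950963-131951022) leaves the coding bases of CTGF after 30 bases.
AC011446.2: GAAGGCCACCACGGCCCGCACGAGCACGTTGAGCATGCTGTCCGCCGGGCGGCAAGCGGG
IER2 mRNA, same bases: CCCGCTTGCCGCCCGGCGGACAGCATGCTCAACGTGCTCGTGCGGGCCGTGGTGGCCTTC
AC093484.3: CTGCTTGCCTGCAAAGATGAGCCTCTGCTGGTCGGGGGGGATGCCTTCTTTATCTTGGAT
AC006064.4: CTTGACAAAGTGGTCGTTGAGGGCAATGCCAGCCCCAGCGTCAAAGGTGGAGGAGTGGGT
AL133346.1: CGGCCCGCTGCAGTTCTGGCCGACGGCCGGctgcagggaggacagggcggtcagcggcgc
The IER2 line is the exact reverse complement of the AC011446.2 line. Opposite coding sequence lay 43.3% of the 756 bases of the AC011446.2 transcript shown, 83.7% of the 461 bases of AC093484.3, 51.9% of the 422 bases of AC006064.4 and 22.8% of the 495 bases of AL133346.1.

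Where a member and a coding gene are head to head, the sequence around one start is close to the other. RefSeq windows (GRCh38.p14, 250 bases before to 50 after a start) were found by symbol for 110 of the 688 members. They are shown without annotated UTR bases for the start of ZFAND2A, a stress-inducible zinc finger gene, in which the annotated start of AC091729.3 also lies (chromosome 7, minus strand, chr7:1160179-1160446), for NNT-AS1 (chromosome 5, minus strand, chr5:43603295-43603480) and for THAP9-AS1 (chromosome 4, minus strand, chr4:82900867-82901082), whose pairs responded unequally, and for IER3-AS1 (chromosome 6, plus strand, chr6:30742734-30743012), a member of the stress-partner group below. Capitals mark matches on either strand to the heat shock element written as TTCNNGAA or GAANNTTC, to the AP-1 site TGANTCA, to CCAAT, or to TGATGNAA, a composite ATF4 and CEBP motif.
ZFAND2A: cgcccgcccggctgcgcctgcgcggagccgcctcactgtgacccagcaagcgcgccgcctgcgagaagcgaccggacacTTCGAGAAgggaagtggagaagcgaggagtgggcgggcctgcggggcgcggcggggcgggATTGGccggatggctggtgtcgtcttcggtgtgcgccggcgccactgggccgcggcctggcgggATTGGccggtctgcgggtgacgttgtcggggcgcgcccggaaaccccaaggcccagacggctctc
NNT-AS1: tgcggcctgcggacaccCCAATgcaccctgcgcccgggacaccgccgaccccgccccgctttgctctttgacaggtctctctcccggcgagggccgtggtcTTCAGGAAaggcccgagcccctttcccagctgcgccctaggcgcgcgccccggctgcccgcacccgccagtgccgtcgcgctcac
THAP9-AS1: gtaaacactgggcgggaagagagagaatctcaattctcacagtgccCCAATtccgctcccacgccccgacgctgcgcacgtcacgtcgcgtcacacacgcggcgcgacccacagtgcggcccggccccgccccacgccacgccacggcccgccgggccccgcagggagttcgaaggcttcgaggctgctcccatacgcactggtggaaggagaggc
IER3-AS1: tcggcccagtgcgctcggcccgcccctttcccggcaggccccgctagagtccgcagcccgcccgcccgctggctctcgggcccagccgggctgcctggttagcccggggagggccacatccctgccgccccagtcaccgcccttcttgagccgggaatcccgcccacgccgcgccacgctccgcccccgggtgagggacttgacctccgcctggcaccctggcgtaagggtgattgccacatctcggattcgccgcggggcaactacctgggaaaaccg
The ZFAND2A window held 1 match to TTCNNGAA and 2 to CCAAT, the NNT-AS1 window 1 of each, the THAP9-AS1 window 1 match to CCAAT and the IER3-AS1 window none. Windows of other genes described below were searched but are not printed. That of DDIT4-AS1 held 1 match to TTCNNGAA and 2 to CCAAT, and that of GATA2-AS1 held 1 to CCAAT. Those of GATA2 and ZBTB11-AS1 held none, and that of ZBTB11 lay wholly in annotated UTRs. Over whole windows, either heat shock form was found in 9.09% of the 110 members and in 13.7% of 27303 RefSeq windows, CCAAT in 39.1% and 35.7%, TGANTCA in 4.55% and 7.76%, and TGATGNAA in 0.909% and 3.67%. A match is a run of letters and not a measured binding site.

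Comparing both groups asks which antisense transcripts differ with the treatment. Where antisense genes changed they were mostly higher in PAL, by small amounts, while a few that lie across stress-response genes fell along with them. With limma on log2(FPKM + 1) and Benjamini-Hochberg adjustment over the 12258 tested genes, 100 of the 688 members passed an adjusted p below 0.05, which is 14.5% against 25.9% of all tested genes. Higher in PAL were 86 (12.5%, against 11.4% of all tested genes) and lower were 14 (2.03%, against 14.5%). Over all 688, most of them scarce, rises thus came at about the background rate and falls well below it. Rises made up 86.0% of the members' calls against 44.0% of all calls. That background split depended on scaling, since rises made up 59.2% of all calls after quantile normalization, 69.7% as TPM and 73.3% with plain read totals. For the members it was 88.1%, 91.2% and 91.7%.

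The rises were small. Among the 86, the log2 change ran from 0.20 to 1.08 with a median of 0.42, and 53 were below 0.5. The 14 falls ran from -0.37 to -1.20 with a median of -0.64. Changes of at least 2-fold on this scale, which understates scarce genes, numbered 1 rise and 4 falls. Over all 688 members, called or not, the median log2 change was 0.13, beside 0.00 for all tested genes, and 480 members (69.8%, against 51.1%) had a value above 0. The groups did not overlap for 166 members (24.1%, against 44.9%), 144 with PAL above and 22 with PAL below (21.4% and 23.6% of all tested genes). Of the 669 members that passed the FPKM rule in libraries of both groups, 76 were higher and 10 lower. Of the 13 that passed through PAL alone 10 were higher, and of the 6 through control alone 4 were lower.

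Other noncoding classes in the same fit give the scale of this. Of 314 tested lincRNA genes, which lie between coding genes, 42 rose (13.4%) and 21 fell (6.69%), with a median log2 change of 0.08. Of 63 genes typed as processed transcript, 7 rose (11.1%) and 2 fell (3.17%), with a median log2 change of 0.11. Few falls were thus not particular to the antisense members. Of 52 genes typed as sense intronic, 5 rose and 7 fell. Of 10338 protein-coding genes, 1198 rose (11.6%) and 1668 fell (16.1%), and of 338 processed pseudogenes 11 rose and 33 fell. These shares are not matched for expression: the median member had 33.3 reads per library and the median lincRNA gene 41.7. The median processed transcript gene had 144.5 and the median protein-coding gene 652. Among 123 members with a mean of at least 100 reads, 26 rose and 5 fell, a larger share of rises than over all 688. The share over all genes at that read level is not given here. The difference between the classes was not tested.

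**Figure D1:**
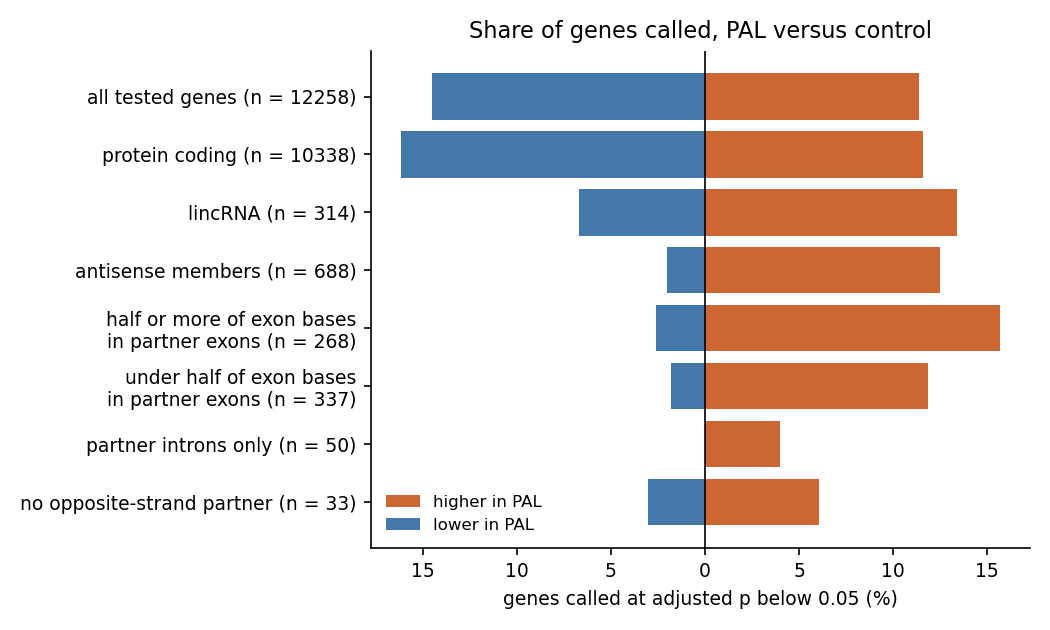
Percentage of tested genes called higher (bars to the right) or lower (bars to the left) in PAL at an adjusted p below 0.05 in limma, for all tested genes, gene types and classes of antisense member by exon overlap. Members rose at 12.5% and fell at 2.03%, against 11.4% and 14.5% of all tested genes.

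The count of called members leaned on single libraries and on which genes were tested. It was 65 without control replicate 2, 57 without PAL replicate 1 and 48 without PAL replicate 2, and 34 when all genes of the table were tested. It was 156 with plain read totals. Of the 129 members with a mean of at least 5 FPKM, tested among such genes only, 36 were higher and 4 lower. These 40 are a larger share of their 129 than the 100 are of all 688 members. In each of these settings most called members were higher in PAL, and no call of the 100 turned its sign.

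Most members were scarce. Their mean FPKM over the 6 libraries ran from 0.691 to 396 with a median of 2.11, against 7.44 for tested protein-coding genes, 559 were below 5 FPKM and 22 reached 20 FPKM. Together they took 0.307%, 0.329% and 0.340% of assigned reads in control replicates 1, 2 and 3, and 0.401%, 0.394% and 0.362% in the PAL replicates. Every PAL library was above every control library in this share, at 0.386% ± 0.0209 against 0.325% ± 0.0164 (SD, n = 3 each). Their summed FPKM did overlap between the groups, at 3206, 3533 and 3759 in control and 4080, 4031 and 3612 in PAL, with PAL replicate 3 below control replicate 3. Total RNA per cell was not measured, so a share of reads cannot be turned into molecules per cell.

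The 6 most abundant members all lie across exons of highly expressed coding genes. AC006064.4 (chromosome 12, 6537794 to 6538370, minus strand), wholly within exons of the glycolysis gene GAPDH, stood at 303, 358 and 372 FPKM in control and 470, 469 and 406 in PAL. The groups did not overlap and the gene rose by 0.38 ± 0.09 (log2 change ± SE, adjusted p = 0.0211 in limma), while GAPDH stood at 2020, 1994 and 2004 and then 2082, 2102 and 2041 FPKM (log2 change 0.05, adjusted p = 0.132). The call was lost without PAL replicate 1 (adjusted p = 0.0691) and without PAL replicate 2 (0.0754), and the difference between AC006064.4 and GAPDH did not pass (0.33 ± 0.10, adjusted p = 0.0924).

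AC093484.3 (chromosome 17, 16382152 to 16382669, minus strand) lies within exons of UBB, a polyubiquitin gene induced by protein damage. It stood at 186, 216 and 251 FPKM in control and 167, 160 and 139 in PAL, without overlap, and fell by 0.48 ± 0.11 (adjusted p = 0.0232 in limma). UBB fell from 883, 891 and 924 FPKM to 528, 544 and 513. The call on AC093484.3 was lost without control replicate 2 (adjusted p = 0.0645), PAL replicate 2 (0.0607) or PAL replicate 3 (0.0617). The other four did not pass. AL138963.3, across the translation-associated gene TPT1, stood at 104 to 128 FPKM in control and 108 to 135 in PAL (log2 change 0.11), AL133415.1, across the intermediate filament gene VIM, at 80.3 to 94.0 and 96.3 to 110 (0.23), AC011603.2, across the tubulin gene TUBA1B, at 77.3 to 91.3 and 88.1 to 109 (0.25), and AL354733.3, across the RNA-binding protein gene HNRNPK, at 75.3 to 89.6 and 76.0 to 86.1 (-0.04). With TPM, plain totals, quantile normalization or voom, AL133415.1 and AC011603.2 passed as higher.

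The level of a member followed that of its partner most closely where they shared exon bases. Over 254 members with 50% or more of their exon bases in partner exons and a tested partner, the log2 level of the member correlated with that of the partner across genes at r = 0.72. It was 0.48 over 297 members with a smaller share and -0.01 over the 33 that overlapped introns only. These genes are not independent replicates, and the points share libraries and, by construction, exon bases. Overlapping pairs of tested protein-coding genes, 1170 in all, gave r = 0.03.

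The same order held over all antisense rows of the table with a partner of at least 5 FPKM, whether or not they passed the FPKM rule. Of 485 rows with no base in partner exons, 47.6% had 0 reads in all 6 libraries and 22 (4.54%) became members. Of 159 rows with every base in partner exons, 0.629% had 0 reads and 109 (68.6%) became members. Over all 159 rows, members or not, the median was 12.6% of the FPKM of the highest partner (interquartile range 6.02 to 20.2%). How the deposited counts treat shared bases can be read from genes whose exon bases, at least 200, all lie within exons of a gene of at least 5 FPKM. On the same strand, 64 of 69 such genes had 0 reads and none had 60 reads or more over the 6 libraries. On the opposite strand, 7 of 192 had 0 reads and 107 had 60 or more, with a median of 74.5. The deposited counts thus treated shared bases differently by strand. How much of the reads on opposite-strand genes came from the partner's own strand was not tested.

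The level relative to the partner also moved from library to library. For the 109 members with all bases in exons of a single tested partner, the median was 14.9%, 16.6% and 17.2% of the partner's FPKM in control replicates 1, 2 and 3, and 20.3%, 19.4% and 17.4% in the PAL replicates. Control replicate 1 was lowest, PAL replicates 1 and 2 highest, and PAL replicate 3 stood next to control replicate 3. Members with a smaller share showed 10.96%, 12.2% and 12.1%, then 14.2%, 13.2% and 11.8%, so that PAL replicate 3 lay inside the control range. For the 33 intron-only members the medians were 22.3%, 20.3% and 17.0%, then 27.6%, 24.6% and 29.5%. The part of this library-wide shift in the members' rises was not tested. Without both libraries numbered 3, 96 members were higher and 13 lower.

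**Figure D2:**
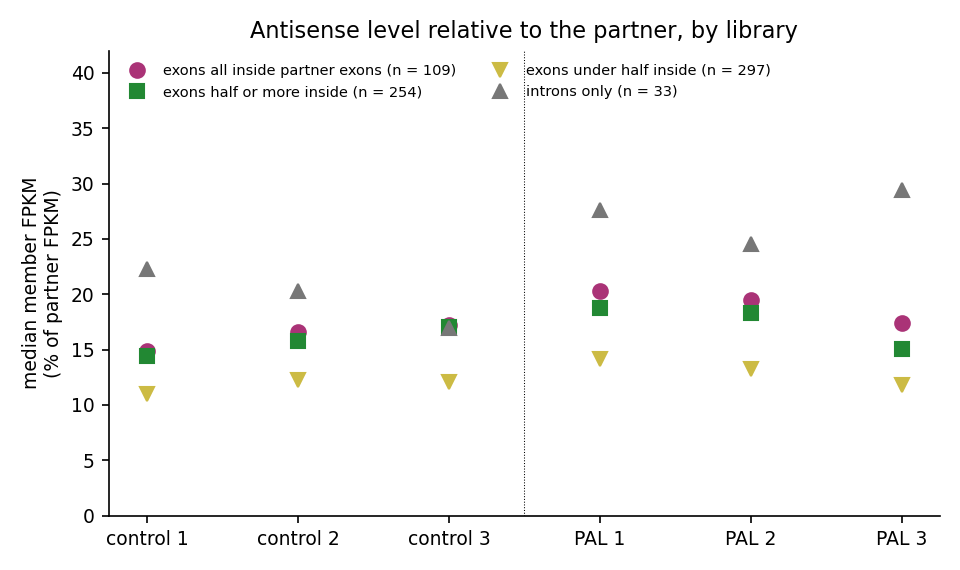
Median FPKM of antisense members as a percentage of the partner's FPKM (y axis) in each of the 6 libraries (x axis), by exon overlap with the partner. Members with all bases in partner exons were lowest in control replicate 1 (14.9%) and highest in PAL replicate 1 (20.3%), and PAL replicate 3, at 17.4%, was next to control replicate 3, at 17.2%.

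Changes of member and partner were also correlated. Across members with 50% or more of their exon bases in partner exons, the log2 change of member and partner correlated at r = 0.56 (254 genes), and at r = 0.94 over the 31 of them with at least 100 reads. With a smaller share it was 0.24 (297 genes) and 0.21 for the 62 with at least 100 reads, and with introns only 0.23 (33 genes). Over members of any read count, the gap between these 2 exon classes leaned on a few large partner changes. Without partners that changed by 0.5 or more it was 0.40 over 248 genes with 50% or more in partner exons and 0.33 over 286 with a smaller share. For those with at least 100 reads it was 0.81 over 28 and 0.12 over 60, so among these the gap remained. Coding pairs that overlap gave 0.09. Each point shares its 6 libraries with every other.

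**Figure D3:**
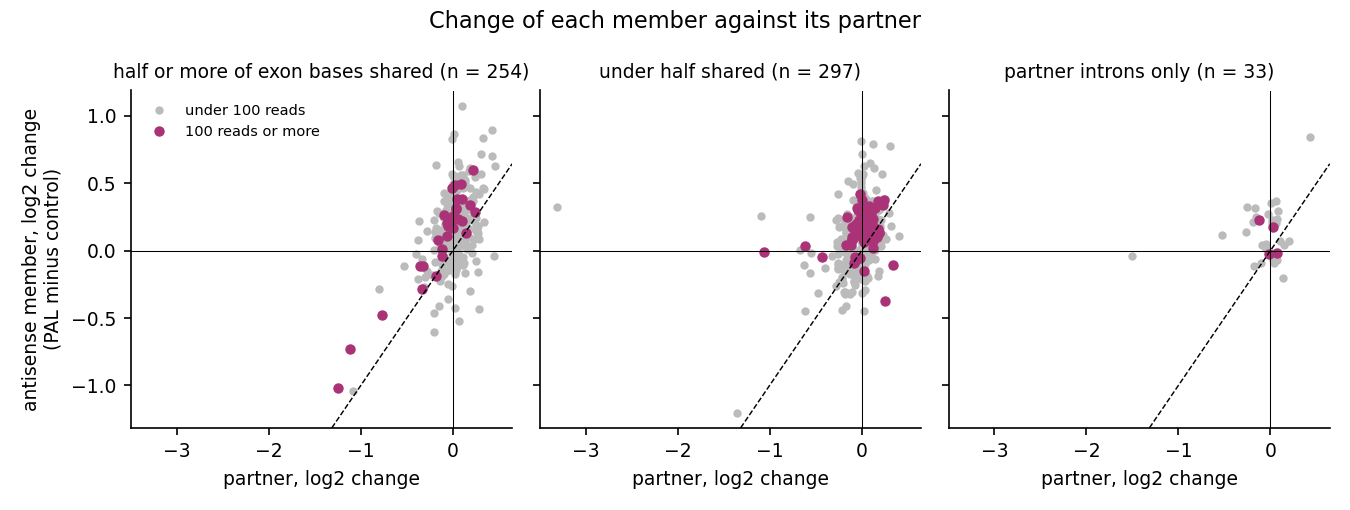
Log2(FPKM + 1) change, PAL minus control, of each antisense member (y axis) against its main partner (x axis), in 3 panels by exon overlap, with the dashed line at equal change. Members with a mean of at least 100 reads per library are drawn dark. In the left panel their changes correlated with those of their partners (r = 0.94 over 31 genes), which does not measure closeness to the dashed line. Over all 641 tested pairs the member's change was above the partner's by a median of 0.15.

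Of the 615 tested partners, 87 rose and 114 fell (32.7% called, against 25.9% of all tested genes), with a median log2 change of 0.01. This split turned with scaling: 137 partners rose and 74 fell after quantile normalization, 172 and 59 as TPM, and 200 and 56 with plain read totals. The counts by partner direction that follow hold for the values as deposited. Where the main partner rose, 18 of 84 members rose and none fell. Where it fell, 5 of 106 members rose and 7 fell. Where it did not pass, 43 of 394 rose and 3 fell. Partner falls without a call in the member numbered 94 and partner rises without one 66. By exon class, 42 rose (15.7%) and 7 fell (2.61%) of 268 members with 50% or more in partner exons, and 40 (11.9%) and 6 (1.78%) of 337 with a smaller share. Of 50 intron-only members 2 rose (4%) and none fell, and of the 33 with no partner 2 rose (6.06%) and 1 fell (3.03%). All tested genes gave 11.4% and 14.5%. The median log2 change was 0.16, 0.12, 0.11 and -0.01 in that order.

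Several falls were at loci of growth factor and immediate early genes. AL133346.1 (chromosome 6, 131950946 to 132077393, plus strand) starts head to head with CTGF, a secreted matricellular protein gene, and 39.4% of its exon bases lie in CTGF exons. It stood at 6.38, 7.23 and 8.35 FPKM in control and 2.53, 3.15 and 2.19 in PAL, and fell by 1.20 ± 0.12 (adjusted p = 0.000834 in limma). CTGF went from 96.4, 102 and 105 to 36.9, 37.0 and 43.2 FPKM, a log2 change of -1.35. Neither gene overlapped between the groups, and the difference between their changes did not pass (0.15 ± 0.15, adjusted p = 0.538). On scales that compress low values less, the change of AL133346.1 was -1.45 (pseudocount 0.1) or -1.48 (voom).

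AC011446.2 (chromosome 19, 13153071 to 13154193, minus strand) lies with all its bases in exons of IER2, an immediate early gene. It stood at 21.9, 27.5 and 22.3 FPKM in control and 10.3, 11.9 and 11.6 in PAL, and fell by 1.02 ± 0.09 (adjusted p = 0.000597 in limma). IER2 stood at 138, 130 and 108 FPKM and then 49.9, 50.4 and 55.3. The member was the best counted of the large falls, with 179 to 386 reads per library, and passed in every alternative setting run.

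AL136131.3 (chromosome 6, 43770429 to 43770616, minus strand), only 188 bases long and wholly in exons of the angiogenic factor gene VEGFA, stood at 5.71, 6.46 and 6.87 FPKM in control and 3.18, 1.59 and 3.18 in PAL. It fell by 1.04 ± 0.19 (adjusted p = 0.0084 in limma) on 5 to 20 reads per library, and VEGFA fell from 9.43, 10.1 and 9.39 to 3.70, 3.98 and 4.43 FPKM. The change of AL136131.3 was -1.29 with a pseudocount of 0.1 and -1.26 with voom. AC005841.1 (chromosome 12, 2797136 to 2803938, minus strand) has 99.3% of its exon bases in exons of FKBP4, an HSP90 co-chaperone gene. It stood at 24.2, 26.6 and 42.1 FPKM in control, the last well above the others, and 18.9, 18.6 and 15.9 in PAL, and fell by 0.73 ± 0.19 (adjusted p = 0.0319 in limma). FKBP4 fell from 129, 127 and 137 to 57.3, 62.2 and 60.3 FPKM. The AC005841.1 call was lost without control replicate 2 (adjusted p = 0.0542) and without PAL replicate 1 (0.0691), 2 (0.0809) or 3 (0.0878).

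**Figure D4:**
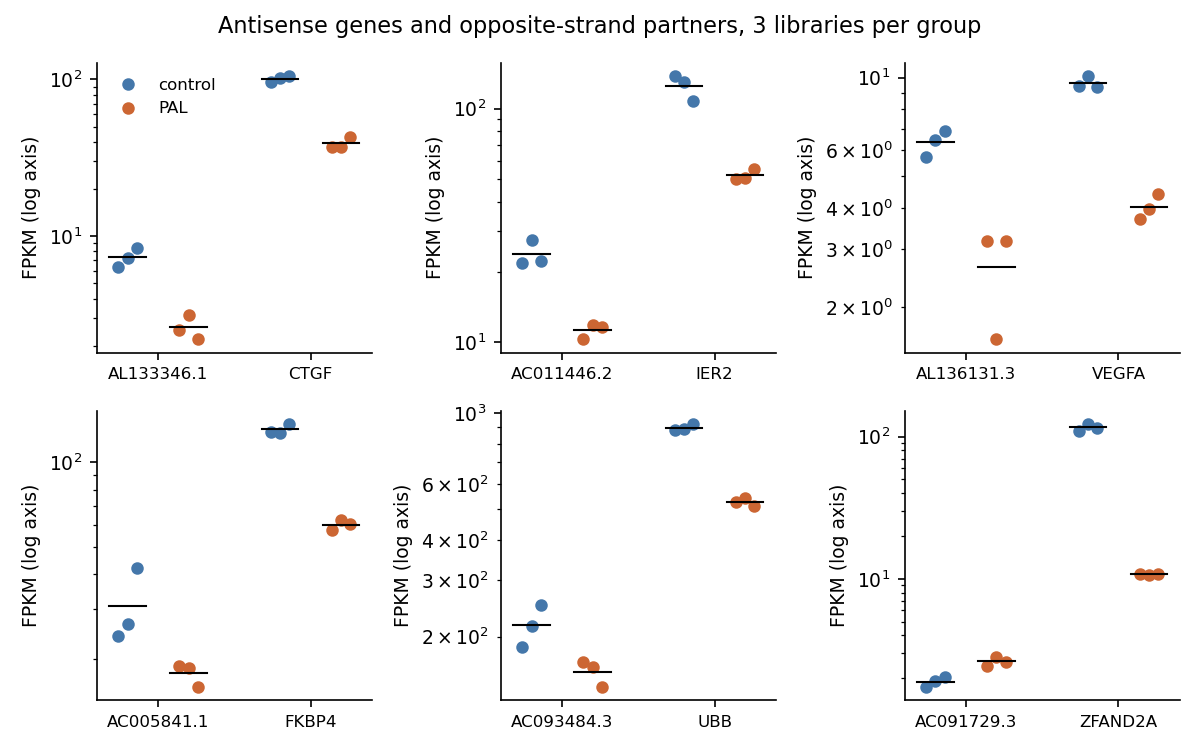
FPKM (log axis) of 6 antisense members and their main partners in each control and PAL library, with black lines at the group means. The first 5 members were lower in PAL together with their partners, while AC091729.3 was higher and ZFAND2A lower.

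The list of stress-response genes held chaperone, immediate early, NF-kB and unfolded protein genes. Of the 8 members with a partner on it, 4 were called lower, those at CTGF, IER2, VEGFA and FKBP4, and none was called higher. Over all tested genes 14.5% were called lower and 11.4% higher, and over all members 2.03% and 12.5%. The list's genes are among those whose falls were already known in these data, so the count is not independent of them. IER3-AS1, opposite the immediate early gene IER3, stood at 18.2, 20.8 and 22.4 FPKM in control and 18.5, 17.7 and 13.9 in PAL (log2 change -0.28, adjusted p = 0.112 in limma), and IER3 fell from 129 to 139 down to 105 to 108 FPKM. DDIT4-AS1, inside the mTOR inhibitor gene DDIT4, had 9.07 to 12.3 and 8.49 to 11.4 FPKM (-0.11), and DDIT4 did not pass either. AC024909.2, inside the ERK phosphatase gene DUSP6, had 1.44 to 1.65 and 1.76 to 2.43 FPKM, with PAL above and no overlap, but did not pass (0.24, adjusted p = 0.112 in limma). The eighth, AC011511.2 at ICAM1, is described below.

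A single fall of at least 2-fold had no coding partner. AC025171.3 (chromosome 5, 43018429 to 43024247, plus strand) stood at 2.63, 2.44 and 1.28 FPKM in control and 0.590, 0.217 and 0.687 in PAL (log2 change -1.04 ± 0.20, adjusted p = 0.0118 in limma). It passed the FPKM rule through the control libraries alone and had 2 to 23 reads per library. Its log2 change was -1.93 with a pseudocount of 0.1 and -2.03 with voom. The other 8 falls, named here after their values were seen, were AL118506.1, GS1-600G8.3, AC243773.1, AC107886.1, AL353689.2, AL024497.2, AL391069.1 and THAP9-AS1. Their log2 changes ran from -0.72 to -0.37. Of all 14 falls, 4 were of members that passed the FPKM rule through the control libraries alone. These were AC025171.3 and some of the 8 just named, so those falls follow in part from the rule.

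With a pseudocount of 1 the largest rise among called members was that of AC002347.2 (chromosome 17, 10680734 to 10683988, plus strand), a spliced transcript of 171 bases inside SCO1, a gene for assembly of mitochondrial cytochrome oxidase. It stood at 3.69, 2.76 and 6.04 FPKM in control and 13.4, 8.41 and 7.62 in PAL, without overlap (1.08 ± 0.27, adjusted p = 0.0266 in limma). It rested on 7 to 42 reads per library. The rank depended on the scale: with a pseudocount of 0.1 its log2 change was 1.24, below the 2.19 of AC079907.1, and with voom it was 1.22 against 2.26. The call was lost without control replicate 1 (adjusted p = 0.0715) or 2 (0.0727) and without PAL replicate 1 (0.0679) or 2 (0.0618). SCO1 stood at 8.29 to 8.83 FPKM in control and 8.94 to 9.54 in PAL and did not pass.

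The next rises by this scale were at low levels. AP001160.3, inside TAF6L, a histone acetyltransferase subunit gene, stood at 1.32, 1.06 and 1.61 FPKM in control and 3.78, 3.45 and 2.35 in PAL (0.84 ± 0.15, adjusted p = 0.00848 in limma), and TAF6L rose by 0.33. AC005586.1, head to head with the zinc finger gene REPIN1, stood at 1.09, 0.585 and 0.671 and then 2.26, 1.97 and 1.88 FPKM (0.78), and REPIN1 rose by 0.31. AC011446.1, tail to tail with the transcriptional corepressor gene NACC1, stood at 3.17, 4.13 and 4.93 and then 7.60, 9.03 and 5.57 FPKM (0.72), and NACC1 rose by 0.30. AC092849.2, tail to tail with the centrosomal gene PPP1R35, stood at 1.14, 1.42 and 0.388 and then 1.96, 3.78 and 2.28 FPKM (0.90), and PPP1R35 rose by 0.42. In these 4 pairs the difference between both changes did not pass (adjusted p = 0.0557 to 0.325 over the pairs). On a scale that compresses low values less, AC005586.1 rose by 1.31 (pseudocount 0.1) or 1.35 (voom), and AC092849.2 had 1.46 (adjusted p = 0.053 in limma) or 1.44. AC092849.2 lost its call in 9 of 16 alternative settings and AC011446.1 in 6 of 18, while AP001160.3 and AC005586.1 kept theirs in each setting in which they were tested.

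AC079907.1, tail to tail with the nucleoporin gene NUP37, and AC133550.2, inside the signalling adaptor gene SH2B1, passed the FPKM rule through the PAL libraries alone, so their rise follows in part from the rule. AC079907.1 stood at 0.338, 0.361 and 0 FPKM in control and 1.02, 1.12 and 1.31 in PAL (log2 change 0.81), on 0 to 9 reads per library. AC133550.2 stood at 0.348, 0.372 and 0.237 and then 1.10, 1.10 and 1.70 FPKM (0.79), on 2 to 17 reads. With a pseudocount of 0.1 or with voom these changes were 2.19 and 2.26 for AC079907.1, and 1.73 and 1.83 for AC133550.2. Neither NUP37 nor SH2B1 passed.

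Among the 138 members whose symbol ends in an AS suffix after a gene name, a class chosen after values were seen, 15 rose (10.9%) and 1 fell (0.725%), against 11.4% and 14.5% of all tested genes. The rises were thus at about the background rate. PTOV1-AS2 (chromosome 19, 49856970 to 49859289, minus strand), inside PTOV1, stood at 8.46, 8.64 and 8.90 FPKM in control and 11.96, 12.3 and 11.6 in PAL (0.42 ± 0.04, adjusted p = 0.000526 in limma). PTOV1 itself stood at 10.2 to 11.3 and 10.1 to 10.6 FPKM, and the pair differed (0.44 ± 0.07, adjusted p = 0.0141). TMEM147-AS1 (chromosome 19, 35540738 to 35546029, minus strand) stood at 2.13, 2.35 and 2.22 FPKM in control and 4.04, 3.90 and 3.74 in PAL (0.60 ± 0.05, adjusted p = 0.000562 in limma). Outside this class and also named after its values were seen, MHENCR (chromosome 20, 63627227 to 63628824, plus strand), described as a melanoma-expressed noncoding RNA and without an overlapping partner, stood at 2.68, 2.11 and 2.42 and then 3.87, 3.59 and 4.202 FPKM (0.52 ± 0.08, adjusted p = 0.00504 in limma). None of these 3 overlapped between the groups.

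Whether both genes of a locus responded alike was tested as the difference of their log2 changes, fitted with limma over all 2045 overlapping opposite-strand pairs with both genes tested. Of the 641 pairs with a member, 38 passed (5.93%), against 10.3% of all 2045 pairs and 12.1% of 1170 coding pairs. The member's change was above the partner's in 36 of the 38. Over all 641 pairs the median difference was 0.15 in the same direction. Head to head pairs gave 15 of 168 (8.93%), pairs with the member inside 17 of 327 (5.20%) and tail to tail pairs 5 of 127 (3.94%). The count of 38 was 23 without control replicate 1, 13 without control replicate 2, 9 without PAL replicate 1 and 10 without PAL replicate 2.

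The largest differences lay at loci where the coding gene fell and the member did not. AC091729.3 (chromosome 7, 1160374 to 1165267, plus strand) starts head to head with ZFAND2A, a gene induced by arsenite and heat, with 5.54% of its exon bases in ZFAND2A exons. ZFAND2A stood at 109, 123 and 115 FPKM in control and 10.7, 10.6 and 10.9 in PAL, a log2 change of -3.31. AC091729.3 stood at 1.74, 1.92 and 2.03 and then 2.44, 2.84 and 2.60 FPKM and rose by 0.33 ± 0.07 (adjusted p = 0.0167 in limma). The 2 changes differed by 3.64 ± 0.08 (adjusted p = 1.31e-06). Both genes separated the groups fully, in opposite directions. The RefSeq start of ZFAND2A and the table's start of AC091729.3 both lie in the printed window. With PAL replicate 2 left out, the rise of AC091729.3 alone was no longer called (adjusted p = 0.0606 in limma). That call was also lost with no filter (0.0529) and without both libraries numbered 3 (0.0555).

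GATA2-AS1 (chromosome 3, 128489212 to 128502348, plus strand) overlaps introns of GATA2, a transcription factor gene of blood and other lineages. GATA2 fell from 12.5, 12.1 and 11.8 FPKM to 3.68, 3.35 and 3.86, while GATA2-AS1 stood at 1.16, 1.54 and 1.499 and then 1.29, 1.36 and 1.33 FPKM. The member lay inside its control range and the pair differed by 1.47 ± 0.11 (adjusted p = 0.000842 in limma). ZBTB11-AS1 (chromosome 3, 101676475 to 101679217, plus strand) stood at 3.52, 2.53 and 3.22 and then 2.89, 3.01 and 3.27 FPKM. Its partner ZBTB11, a zinc finger gene, fell from 12.1, 13.8 and 14.5 to 6.20, 5.44 and 6.09 FPKM, and the pair differed by 1.06 ± 0.14 (adjusted p = 0.00919).

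AC019068.1, head to head with the homeobox gene GBX2, stood at 1.30, 1.39 and 1.27 FPKM in control and 1.71, 1.99 and 1.66 in PAL (0.26, adjusted p = 0.0402 in limma). GBX2 fell from 2.76, 2.57 and 2.51 to 0.540, 0.699 and 0.844 FPKM, and the pair differed by 1.35 ± 0.12 (adjusted p = 0.0014). GBX2 reached 1 FPKM in the control libraries alone, so it entered the test through the group where it is high, and its fall and this difference follow in part from that filter. The change of AC019068.1 was 0.40 with a pseudocount of 0.1 and 0.41 with voom. The AC019068.1 call was lost in 10 of 17 alternative settings, among them each that left out 1 library. AC011511.2, which reaches the adhesion molecule gene ICAM1 at its far end, stood at 1.93, 2.65 and 2.53 and then 2.84, 3.26 and 1.89 FPKM, while ICAM1 fell from 20.5, 20.6 and 22.6 to 10.4, 10.2 and 10.6 (difference 1.07 ± 0.17). AC018761.2 has all its bases in exons of the peroxiredoxin gene PRDX2 and also overlaps HOOK2, a microtubule linker gene. It stood at 5.76, 13.0 and 11.1 and then 15.6, 14.98 and 12.7 FPKM, overlapping between groups. AC018761.2 itself did not pass (0.55, adjusted p = 0.152 in limma), and it differed from HOOK2 by 1.03 ± 0.24. That difference concerns HOOK2 alone, and PRDX2, which holds all exon bases of AC018761.2, is not compared here.

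Smaller splits, named after their values were seen, ran in both directions. NNT-AS1 (chromosome 5, 43571594 to 43603230, minus strand) stood at 3.61, 4.13 and 3.68 FPKM in control and 4.59, 4.62 and 4.93 in PAL (0.25 ± 0.06, adjusted p = 0.0223 in limma). Its head to head partner NNT, the mitochondrial transhydrogenase gene, fell from 12.1 to 12.2 down to 10.7 to 10.8 FPKM (log2 change -0.16). THAP9-AS1 (chromosome 4, 82893009 to 82900960, minus strand) went the other way: it fell from 6.93, 6.74 and 6.08 FPKM to 4.59, 4.51 and 5.47 (-0.37 ± 0.08, adjusted p = 0.0138), and THAP9, a gene of transposon origin, stood at 0.623 to 0.890 and 1.03 to 1.12 FPKM and did not pass (0.25, adjusted p = 0.0751). THAP9 reached 1 FPKM in the PAL libraries alone, so it was tested only through the group where it is higher, and the difference of its pair draws in part on that filter. The pairs differed by 0.41 ± 0.08 (adjusted p = 0.0212) and -0.63 ± 0.11 (adjusted p = 0.0195).

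**Figure D5:**
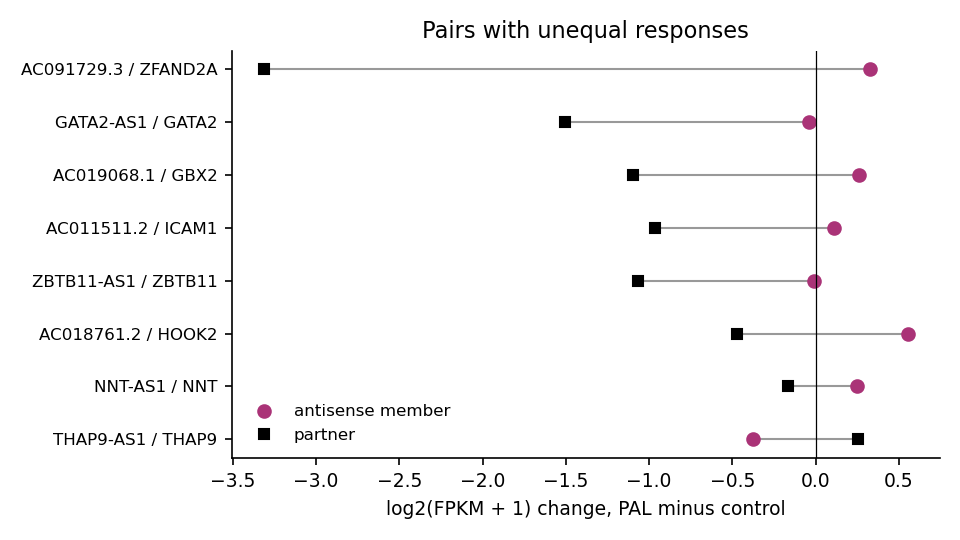
Log2(FPKM + 1) change, PAL minus control, of the antisense member (circle) and its partner (square) for 8 pairs whose changes differed. ZFAND2A lies at -3.31 against 0.33 for AC091729.3, and THAP9-AS1 is the pair shown in which the member lies below its partner.

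Genes of nuclear RNA decay and of transcript ending, which limit many antisense transcripts, moved in both directions. Of 47 listed genes, all tested, 7 rose (14.9%) and 8 fell (17.0%), with a median log2 change of 0.01. In all 31.9% were called, near the 25.9% of all tested genes, so the list does not stand out by its count, and the genes below are given as values. DIS3, a catalytic exosome subunit, fell from 18.4 ± 0.629 to 12.9 ± 0.315 FPKM (SD, n = 3 each). ZCCHC8, the scaffold of the NEXT complex that hands RNA to the exosome, fell from 5.49 ± 0.369 to 3.72 ± 0.277, and PCF11, a termination factor, from 6.05 ± 0.541 to 3.58 ± 0.210. TENT4B, MTREX, SRRT, NCBP2 and INTS7 also fell. ZC3H4, which restricts noncoding transcription, rose from 6.16 ± 0.415 to 10.4 ± 0.480, and INTS5, an Integrator subunit, from 9.52 ± 0.830 to 13.9 ± 0.859. EXOSC3, EXOSC4, EXOSC6, ZC3H18 and CPSF4 also rose. The split depended on scaling, with 9 rises and 5 falls after quantile normalization, 14 and 5 as TPM and 15 and 5 with plain totals. The count of calls was 9 without control replicate 2 or without PAL replicate 2. Whether these changes bear on the members was not tested.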

How the data were processed

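Poly-A enriched total RNA was sequenced from 3 PAL and 3 control libraries of A375 cells, grouped by sample title. The authors deposited 1 FPKM value per gene and library with gene length, type and position, per the file headers. The genome build is hg38, per the submitters' processing notes. No aligner, counter or strand setting is named there or in the labels.

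FPKM times gene length gave whole reads for 100% of values within 0.05 of a whole number. The library size behind the FPKM was 0.980 to 0.984 of the read total in control and 1.04 to 1.05 of it in PAL. The genes tested, with limma 3.58.1 (R 4.3.3) on log2(FPKM + 1), were those reaching 1 FPKM in 3 or more libraries. The test was two-sided, with a variance trend, 4 residual degrees of freedom and Benjamini-Hochberg adjustment. A fold change on this scale understates low genes. Member minus partner was fitted the same way. The scripts were tested on simulated data.

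Members, gene lists and tests were chosen with earlier results of these data known. Named are the 12 largest changes among members called without overlap, the 6 most abundant members, members with a partner on the stress list, the 6 most unequal pairs and the 4 rows nearest the FPKM limit. Others are marked as chosen after their values were seen. Alternatives covered pseudocount, filter, scaling, variance model, replicate block, voom on recovered reads and each library left out. Figures were drawn with matplotlib 3.10.9.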

Additional observations from a re-analysis of the deposited data

How the results depend on the processing

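Members called, 100 in all, became 34 with no filter, 40 with a mean of at least 5 FPKM and 156 with plain read totals, and 48 to 99 when 1 library was left out. Named members called, 16 of 27, became 8 with no filter, 7 with a mean of at least 5 FPKM, and 8 to 15 leaving out 1 library. Of these 27, 12 were named because they had been called, so the 16 are not a rate. Over all members 14.5% were called and over all tested genes 25.9%. Partners called, 201 (87 higher, 114 lower), became 128 with no filter, 231 (172 higher) as TPM, 256 (200 higher) with plain totals, 211 (137 higher) after quantile normalization and 111 to 181 leaving out 1 library. Decay genes called ranged from 9 to 16 leaving out 1 library. Unequal pairs, 38, became 12 with a mean of at least 5 FPKM and 9 to 32 leaving out 1 library, and this fit was not run with voom. The members' median log2 change of 0.13 became 0.19 with a pseudocount of 0.1, 0.20 with a mean of at least 5 FPKM, 0.24 as TPM, 0.19 with plain totals, 0.19 with voom, and 0.09 to 0.16 leaving out 1 library. The median of all tested genes was 0.07 as TPM, 0.08 with plain totals and 0.03 after quantile normalization. The smaller counts with a filter of 5 FPKM rest on fewer genes tested. The cause of the other shifts was not tested.

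Same-numbered PAL and control libraries had correlations of their deviations of -0.02, 0.03 and -0.04, so the numbers were not taken to pair them. With the replicate number as a block, 71 members, 10 named members, 126 partners and 7 unequal pairs were called.

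Log2 changes that turned sign all belonged to members that did not pass. Leaving out 1 library, AC011511.2 ranged from -0.00843 (without PAL replicate 2) to 0.271, DDIT4-AS1 from -0.245 to 0.00868 (without PAL replicate 2), AL354733.3 from -0.0994 to 0.0238 (without control replicate 3), GATA2-AS1 from -0.114 to 0.00163 (without control replicate 2) and ZBTB11-AS1 from -0.109 to 0.0694 (without control replicate 1). As TPM, AL354733.3 was 0.0299, GATA2-AS1 0.00297 and ZBTB11-AS1 0.0594, and with plain totals they were 0.0438, 0.00872 and 0.0581. AL354733.3 was 0.0519 after quantile normalization and 0.0561 without both libraries numbered 3. At a median of 33.3 reads per library, counting error alone limits what single members can show, and 223 members had a mean below 20 reads. Counting error is a lower limit, since reads copied by PCR are not independent molecules.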
